A study of Homo sapiens with 4 samples.

Results

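The BCL2 family decides at the mitochondrial outer membrane whether a cell enters apoptosis, and 10 of its genes were examined after knockdown of SAPCD2 in a neuroblastoma line. They are 3 anti-apoptotic genes (BCL2, BCL2L1 and MCL1), 2 effectors (BAX and BAK1) and 5 BH3-only genes (BCL2L11, BBC3, PMAIP1, BID and HRK). The members were taken by their GENCODE symbols, and all 10 were found by Ensembl identifier among the 64252 genes of the count table. All 10 also passed the filter on low counts, which left 18779 genes for testing.

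Anti-apoptotic members hold the effectors and the BH3-only proteins in check by binding their BH3 helix. BH3-only proteins carry stress signals: they occupy the anti-apoptotic members, and some of them activate BAX and BAK directly. Activated BAX and BAK form pores that release cytochrome c, after which APAF1 and caspase-9 start the caspase cascade. Neuroblastomas are known for high BCL2 or MCL1, and drugs that mimic BH3 helices are studied against them.

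Total RNA was sequenced from SK-N-BE(2), a human MYCN-amplified neuroblastoma line. One group had a scrambled short hairpin RNA (sh-Scb, 2 libraries) and the other a hairpin against SAPCD2 (sh-SAPCD2, 2 libraries). In the study, hairpins were delivered by lentivirus and cells were selected with puromycin, so both groups are stably infected cells of a single line, and no time after infection was given for them. Nothing in the labels says that the replicates were separate cultures, so p-values measure only the spread between these libraries.

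Libraries held from 25347900 to 31850997 counts, and 3 counts, taken as the smallest detectable amount, equaled 0.0955 to 0.119 CPM (read counts scaled to the size of the library, with TMM factors). SAPCD2 itself was at 83.6 and 82.2 CPM in sh-Scb replicates 1 and 2 and at 35.4 and 52.5 CPM in sh-SAPCD2 replicates 1 and 2. It fell by 0.91 on the log2 scale (standard error 0.193, adjusted p = 0.0206), and replicate 2 of the knockdown kept 1.48 times the level of replicate 1. The sh-SAPCD2 libraries also differed more from each other than the sh-Scb libraries did, with a chi-square per degree of freedom over genes of 39.3 against 4.44. All 8 adrenergic neuroblastoma markers were detected, with summed levels of 2877 and 2791 CPM in the sh-Scb group and 2259 and 3003 CPM in the sh-SAPCD2 group, and 3 of them fell, ISL1 and DBH among them. Markers of Schwann, immune, endothelial and epithelial cells summed to between 0.254 and 14.5 CPM per list and library, and SOX10, CD3E, LYZ, KRT5 and CDH1 were at 0 in all 4 libraries, although CD14, CD68 and VWF rose from low levels. The 6 fibroblast and mesenchymal markers summed to 354 to 432 CPM, mostly from PDGFRB and LUM, and none of the 5 that were tested passed the test. The part of these genes in the results below was not tested. Fewer cells of a kind and less RNA per cell cannot be told apart in such bulk libraries.

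The sequences below show what was introduced into the cells and what letters some members share. The study lists 2 hairpins, the labels name only sh-SAPCD2, and the study's heat map gives the sequenced cells as hairpin #1. Its 2 arms are printed 5′ to 3′ with bases 2 to 8, the seed, in capitals.
sh-SAPCD2 #1 sense arm: aCCTCTGGattccaccttcat
sh-SAPCD2 #1 antisense arm: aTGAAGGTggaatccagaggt
Of the 10 members, 3 carry the complement of the antisense seed, ACCTTCA, in the annotated 3′ untranslated region, against 12.5% of 13581 tested genes with such a region. These sites are shown on the transcript strand (hg38) with the complement of the seed in capitals.
BBC3, chr19:47221207-47221213, minus strand: cctgcctcACCTTCAtcaggggg
BCL2L11, chr2:111164547-111164553, plus strand: tccccctcACCTTCAataaggtt
HRK, chr12:116859326-116859332, minus strand: aaggctgtACCTTCAagatcgta
The coordinates give the 7 capitals. Of these 3, BBC3 and BCL2L11 rose and HRK did not pass the test, as described below, and the part of the site in these values was not tested. The complement of the sense seed, CCAGAGG, was in BCL2L11, BAK1 and HRK, against 17.6% of genes. A match is likelier in a longer region, and neither share was corrected for length. The untranslated region has 5379 bases in HRK, 4213 in BCL2L11, 1251 in BAK1 and 978 in BBC3.

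Promoters of 9 members were available from RefSeq (GRCh38.p14, 250 bases before to 50 after each start), and MCL1 had no entry. The E-box CACGTG is bound by MYC-family and other basic helix-loop-helix factors and reads alike on both strands. It was found in BAX, in BBC3 and at 2 of the 5 starts of BID. These 2 BID stretches overlap and hold the same motif. Counted per promoter and not per gene, the E-box was found in 7.3% of 35116 promoters. The promoters of BAX and BBC3 are printed because an effector holds 4 of these motifs and the member with the largest rise holds 1, with each motif in capitals.
BAX, chr19:48954625-48954924, plus strand: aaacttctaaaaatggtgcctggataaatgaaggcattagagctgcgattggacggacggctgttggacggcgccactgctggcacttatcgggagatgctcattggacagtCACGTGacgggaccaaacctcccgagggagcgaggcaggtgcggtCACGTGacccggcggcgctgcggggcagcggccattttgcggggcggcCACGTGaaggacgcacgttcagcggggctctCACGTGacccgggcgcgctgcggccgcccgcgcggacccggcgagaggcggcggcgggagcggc
BBC3, chr19:47232618-47232917, minus strand: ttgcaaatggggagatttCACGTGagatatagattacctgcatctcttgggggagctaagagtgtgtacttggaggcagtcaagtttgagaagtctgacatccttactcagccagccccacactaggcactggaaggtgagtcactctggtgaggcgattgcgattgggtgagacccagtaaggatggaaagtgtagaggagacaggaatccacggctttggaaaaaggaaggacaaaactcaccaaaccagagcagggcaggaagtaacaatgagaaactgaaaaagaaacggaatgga
Counted from the first printed base, the BAX motifs begin at positions 113, 158, 206 and 237, and the BBC3 motif begins at position 19. The letters TTTCCCGC, TTTGGCGC, TTTCGCGC and TTTGCCGC, forms of the E2F motif, were searched on both strands and were in no member promoter, against 3.3% of all promoters. A match is only a match of letters, and its part in any change was not tested.

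After SAPCD2 knockdown, 3 of the 10 members rose and none fell. BBC3, which encodes PUMA, rose 3.3-fold, BCL2L11, which encodes BIM, rose 1.51-fold, and MCL1 rose 1.4-fold. Among all tested genes, 12.4% were called higher and 12.5% lower at an adjusted p under 0.05 in edgeR's quasi-likelihood test, and 3 of 10 stands beside the first of these. With the added requirement of an absolute log2 fold change over 1, which defines a differentially expressed gene (DEG) here, BBC3 was the 1 member called higher, against 4.69% of tested genes. No member was called lower at this threshold either, against 5.15% of tested genes. At an unadjusted p under 0.05, edgeR gave 5 members higher and 0 lower, against 20% and 19.4% of tested genes. DESeq2 gave 5 higher and 0 lower at an adjusted p under 0.05, against 16.7% and 13.7% of the 15970 genes to which it gave an adjusted p. The median log2 fold change was 0.37 over the members and 0.02 over all tested genes. In all 10 members the values of the groups did not overlap, 6 being higher and 4 lower in the knockdown libraries, where 33.5% and 33.4% of all tested genes did the same.

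**Figure D1:**
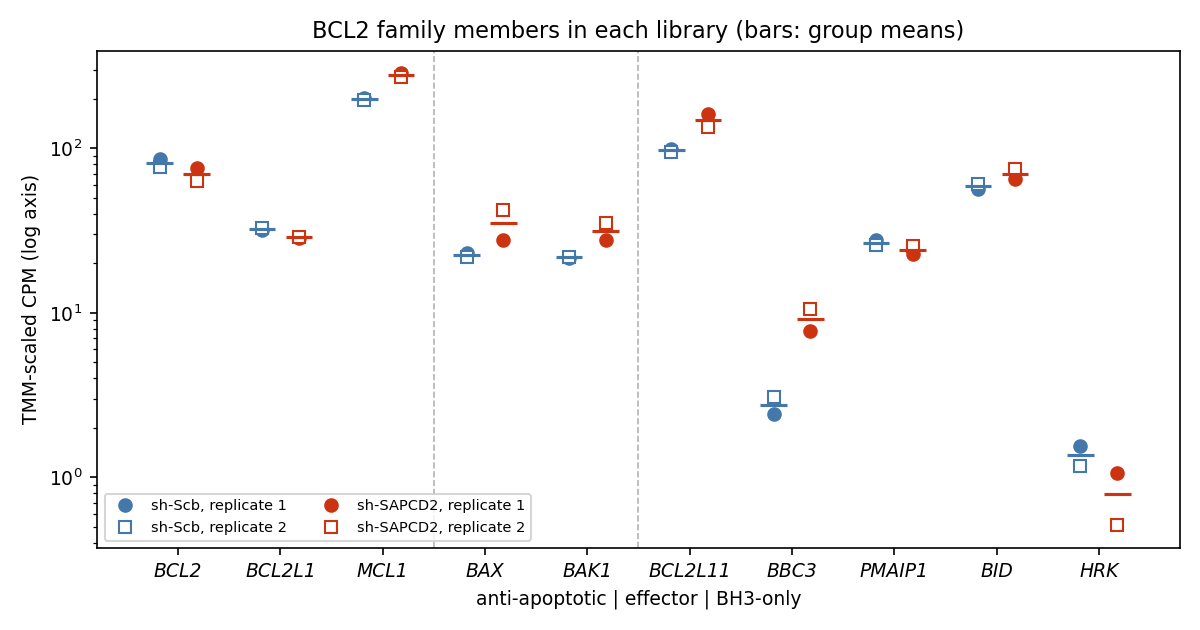
TMM-scaled CPM on a log axis of each member in the 4 libraries, with sh-Scb in blue and sh-SAPCD2 in red, circles for replicate 1, squares for replicate 2 and short bars for group means. The sh-SAPCD2 points lie above both sh-Scb points for MCL1, BAX, BAK1, BCL2L11, BBC3 and BID and below them for the other 4 members, by small distances in BCL2, BCL2L1 and PMAIP1.

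The anti-apoptotic members moved in different directions, and of the 3 only MCL1 passed the test. MCL1 (ENSG00000143384, chromosome 1 from 150560895 to 150579738, minus strand) encodes a short-lived protein that restrains BIM, NOXA and BAK. It was at 202 and 198 CPM in sh-Scb replicates 1 and 2 and at 286 and 273 CPM in sh-SAPCD2 replicates 1 and 2. Both knockdown libraries were well above both controls, and replicates differed by less than 5% of their level in either group. On the log2 scale MCL1 rose by 0.48 (standard error 0.0936, 95% confidence interval 0.26 to 0.71), with an adjusted p of 0.016.

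BCL2 (ENSG00000171791, chromosome 18 from 63123346 to 63320128, minus strand) encodes the founding anti-apoptotic member, which binds BIM and PUMA and is the target of venetoclax. Its levels were 86.3 and 76.7 CPM in the sh-Scb libraries and 76.1 and 63.2 CPM in the sh-SAPCD2 libraries. The lower control and the higher knockdown library were nearly level, and sh-SAPCD2 replicate 2 was the lowest of the 4. The log2 fold change of −0.23 (standard error 0.136, interval −0.56 to 0.10) did not pass the test, with an adjusted p of 0.265. Without sh-SAPCD2 replicate 1 it was −0.37, with an adjusted p of 0.0222, and without sh-SAPCD2 replicate 2 it was −0.10, with an adjusted p of 0.411.

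BCL2L1 (ENSG00000171552, chromosome 20 from 31664452 to 31723989, minus strand) encodes BCL-XL and, by splicing, the pro-apoptotic BCL-XS, which gene counts do not separate. It was at 32.1 and 32.8 CPM in the sh-Scb libraries and at 28.7 and 29.1 CPM in the sh-SAPCD2 libraries. The replicates were close and the groups lay apart by a small step. This log2 fold change of −0.17 (standard error 0.122, interval −0.46 to 0.13) did not pass the test (adjusted p = 0.356). The antisense gene ABALON covers 41.3% of its exon bases and has no row of its own in the table used here, so reads from either strand cannot be told apart, since the strand setting of the counting is not given in the sources used here.

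Both effectors were higher in the knockdown libraries, and neither passed the test. BAX (ENSG00000087088, chromosome 19 from 48954815 to 48961798, plus strand) encodes the cytosolic effector that moves to mitochondria once activated. It was at 23.1 and 21.9 CPM in the sh-Scb libraries and at 27.6 and 42.4 CPM in the sh-SAPCD2 libraries. The controls were within 1.05-fold of each other, while replicate 2 of the knockdown was 1.54 times replicate 1. BAX had a log2 fold change of 0.64, a standard error of 0.217 and an interval of 0.11 to 1.17, and the adjusted p was 0.0798. BAX was called in 5 of the 13 alternative analyses, DESeq2 among them (adjusted p = 0.0168). In edgeR it was also called with the replicate block (log2 fold change 0.61, adjusted p = 0.0185). With the correction for GC content and length it was called at 0.43 (adjusted p = 0.0157), and also with both. Its log2 fold change was 0.91 without sh-SAPCD2 replicate 1 and 0.29 without sh-SAPCD2 replicate 2, so its size depended on the library left out.

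BAK1 (ENSG00000030110, chromosome 6 from 33572547 to 33580293, minus strand) encodes BAK, the effector that resides in the outer membrane and is held by MCL1 and BCL-XL. Its levels were 21.6 and 21.8 CPM in the sh-Scb libraries and 27.8 and 35.3 CPM in the sh-SAPCD2 libraries. As for BAX, the controls were nearly equal and replicate 2 of the knockdown was the highest. The log2 fold change of 0.54 (standard error 0.159, interval 0.16 to 0.93) lay just outside the threshold, at an adjusted p of 0.0536. It was called in DESeq2 (adjusted p = 0.0234) and in 9 of the 13 alternative analyses in all, with log2 fold changes of 0.70 without sh-SAPCD2 replicate 1 and 0.36 without sh-SAPCD2 replicate 2.

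Of the 5 BH3-only members, 2 rose, and 3 did not pass the test. BBC3 (ENSG00000105327, chromosome 19 from 47220822 to 47232766, minus strand) encodes PUMA, a target of p73 and FOXO3 that binds every anti-apoptotic member. It was at 2.43 and 3.09 CPM in the sh-Scb libraries and at 7.7 and 10.5 CPM in the sh-SAPCD2 libraries, from raw counts of 67, 85, 195 and 330. Against the control mean the knockdown libraries were 2.79-fold and 3.81-fold higher, and the gap between the groups was wider than the gap inside either. BBC3 rose by 1.72 on the log2 scale (standard error 0.253, interval 1.11 to 2.34), with an adjusted p of 0.00735. It was called in all 13 alternative analyses, between 1.30 and 1.92. In edgeR's test against a minimum absolute log2 fold change of 1, it had an unadjusted p of 0.00393 and an adjusted p of 0.161, so 1 member passed there before adjustment and 0 after. BBC3 had the highest GC content of the members (69.7%, against a median of 48.4% over tested genes) and the rise was 1.30 with a correction for GC content and length.

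BCL2L11 (ENSG00000153094, chromosome 2 from 111119378 to 111168444, plus strand) encodes BIM, an activator that FOXO factors and JUN induce. It was at 99.8 and 95.7 CPM in the sh-Scb libraries and at 161 and 135 CPM in the sh-SAPCD2 libraries. The controls differed by 1.04-fold, and here replicate 1 of the knockdown was the higher. BCL2L11 rose by 0.60 on the log2 scale (standard error 0.121, interval 0.30 to 0.89), with an adjusted p of 0.0185. The antisense gene MIR4435-2HG overlaps 10.8% of the exon bases of BCL2L11 and had 355 and 404 counts in the sh-Scb libraries and 570 and 563 in the sh-SAPCD2 libraries. Its part in the rise was not tested.

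PMAIP1 (ENSG00000141682, chromosome 18 from 59899996 to 59904305, plus strand) encodes NOXA, which binds MCL1 and leads to its degradation. It was at 27.6 and 25.8 CPM in the sh-Scb libraries and at 22.6 and 25.6 CPM in the sh-SAPCD2 libraries. The second libraries of both groups were almost the same. The log2 fold change was −0.15 (standard error 0.138, interval −0.48 to 0.19, adjusted p = 0.475), and with the correction for GC content and length it was 0.03. NOXA and its partner MCL1 were therefore called differently, with MCL1 higher and PMAIP1 not called, and the difference between them was not tested.

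BID (ENSG00000015475, chromosome 22 from 17734138 to 17774770, minus strand) encodes the protein that caspase-8 cleaves to carry death receptor signals to mitochondria. Its levels were 56.8 and 60.6 CPM in the sh-Scb libraries and 65.1 and 75.3 CPM in the sh-SAPCD2 libraries. Replicate 2 of the knockdown was again the highest. Its log2 fold change of 0.26 (standard error 0.123, interval −0.04 to 0.56) had an adjusted p of 0.174. It was called with the correction for GC content and length, at 0.33 with an adjusted p of 0.0281, and without sh-SAPCD2 replicate 1, at 0.35 with an adjusted p of 0.0115. Without sh-SAPCD2 replicate 2 it was at 0.15 and not called, with an adjusted p of 0.155.

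HRK (ENSG00000135116, chromosome 12 from 116856144 to 116881441, minus strand) encodes Harakiri, a BH3-only protein known from neurons deprived of growth factor. It had 43 and 32 counts in the sh-Scb libraries and 27 and 16 counts in the sh-SAPCD2 libraries, or 1.56, 1.16, 1.07 and 0.509 CPM. Every library was above the detectable amount, and replicate 2 of the knockdown was at 0.478 times replicate 1. The log2 fold change of −0.80 had the widest interval of the members, −1.93 to 0.32, with a standard error of 0.463 and an adjusted p of 0.25. It was −1.41 without sh-SAPCD2 replicate 1 and −0.35 without sh-SAPCD2 replicate 2, and called in neither. A fall of HRK was not detectable at this depth.

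**Figure D2:**
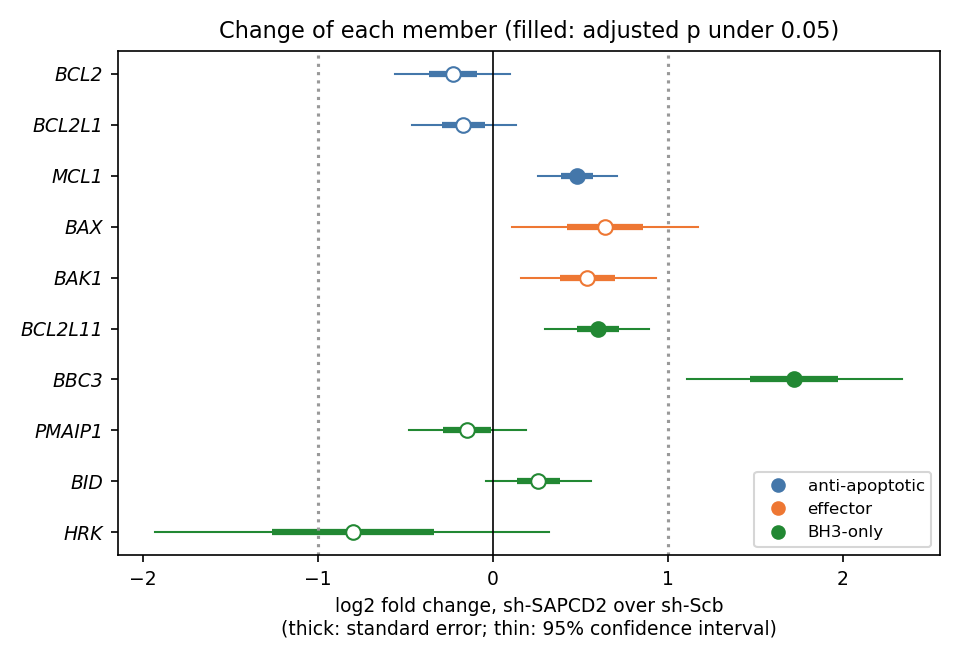
Log2 fold change of each member, sh-SAPCD2 over sh-Scb, colored by role, with the standard error as a thick bar, the 95% confidence interval as a thin bar and dotted lines at a log2 fold change of 1 either way. Filled points (MCL1, BCL2L11 and BBC3) had an adjusted p under 0.05, and the interval of BBC3, 1.11 to 2.34, is the only one to lie wholly beyond a dotted line.

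Leaving out single libraries changed these calls, with fewer members called without a sh-Scb library and more without a sh-SAPCD2 library. Calls over the whole table moved the same way, as given in the section on processing. Each such fit leaves 1 library in a group, assumed to vary like the other group. MCL1 and BCL2L11 lost their calls without either sh-Scb library, and BBC3 kept its call. Without sh-Scb replicate 1 the log2 fold change was 1.56 for BBC3, 0.5 for MCL1 and 0.63 for BCL2L11. Without sh-Scb replicate 2 these were 1.91, 0.47 and 0.57. Without sh-SAPCD2 replicate 1 they were 1.92, 0.45 and 0.46, and without sh-SAPCD2 replicate 2 they were 1.48, 0.52 and 0.72.

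**Figure D3:**
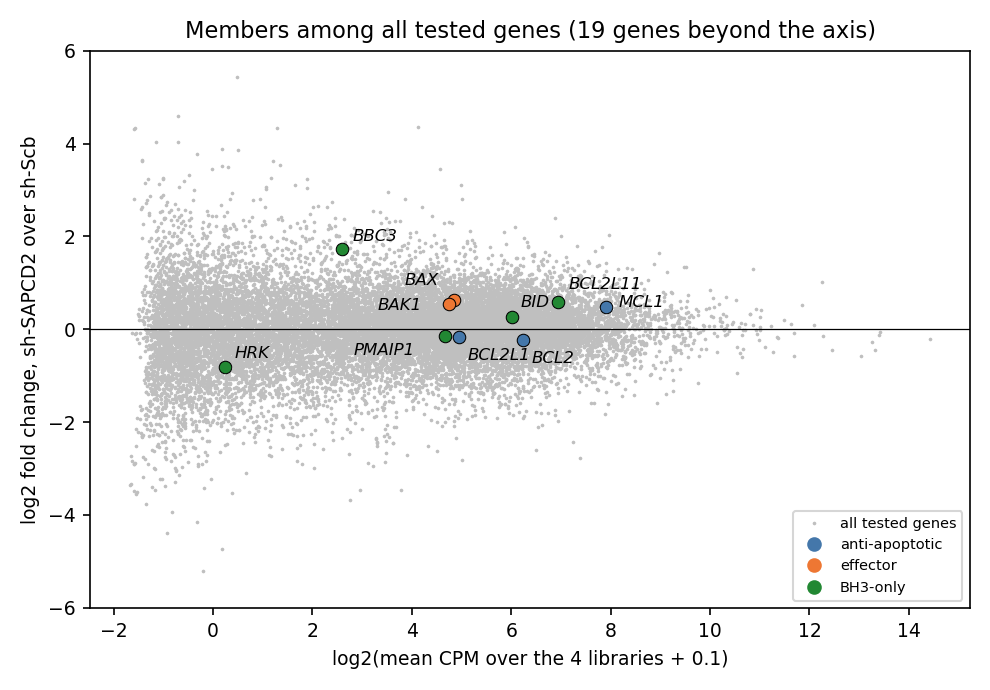
Log2 fold change of every tested gene (grey) against log2 of its mean CPM over the 4 libraries plus 0.1, with the members in color by role and 19 genes beyond the axis of 6 either way. BBC3 lies toward the upper edge of genes of its level, HRK among the wide scatter of genes with few counts, and the other members within the body of the cloud.

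Levels were compared between members as CPM per kb of annotated exon, since longer transcripts yield more reads. In the sh-Scb group MCL1 was the highest, at 32.1 ± 0.413 (SD, n = 2) CPM per kb. BCL2L11 followed at 14.5 ± 0.431, BID at 13.3 ± 0.606 and PMAIP1 at 12.2 ± 0.588. The control values of BID, 12.9 and 13.7, lay between those of BCL2L11, 14.8 and 14.2, and PMAIP1, 12.6 and 11.8, without overlap. The nearest values were close, and the order of these neighbors rests on 2 libraries and was not tested. BAK1 was at 9.81 ± 0.0505, BAX at 8.70 ± 0.323, BCL2L1 at 7.73 ± 0.119 and BCL2 at 6.46 ± 0.539. BBC3, at 0.866 ± 0.147, and HRK, at 0.198 ± 0.0406, were far below the rest. With the longest coding transcript as the length, MCL1 was again first and BBC3 and HRK last, while BID rose to rank 2 and BAX to rank 4, so the order between them depends on the length used. In the sh-SAPCD2 group MCL1 was at 45.0 ± 1.46, BCL2L11 at 21.9 ± 2.73 and BBC3 at 2.86 ± 0.623 CPM per kb. BBC3 after its rise was thus still below all members but HRK.

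Shares were also taken within each role. Of the summed CPM per kb of the 3 anti-apoptotic members, MCL1 made up 69.1% and 69.6% in the sh-Scb libraries and 78.1% and 78.6% in the sh-SAPCD2 libraries. The share of BCL2 was 14.6% and 13.3% against 10.3% and 8.97%, and its ratio to MCL1 was 0.211 and 0.191 against 0.131 and 0.114. BAX made up 47.7% and 46.3% of the effector sum in the sh-Scb libraries and 45.9% and 50.7% in the sh-SAPCD2 libraries, which lay on either side of the controls. With the longest coding transcript as the length, these BAX shares were 63.5% and 62.1% against 61.8% and 66.2%. Which effector held the larger share thus depended on the length used. BCL2L11 per anti-apoptotic sum was 0.316 and 0.310 in the sh-Scb libraries and 0.405 and 0.358 in the sh-SAPCD2 libraries. The sum of effectors and BH3-only members over the anti-apoptotic sum was 1.28 and 1.29 in the controls and 1.27 and 1.51 in the knockdown. The 2 knockdown libraries therefore disagreed on this last ratio, one being at the control level and the other above it. These ratios are descriptions of RNA, with no test, and say nothing of protein.

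**Figure D4:**
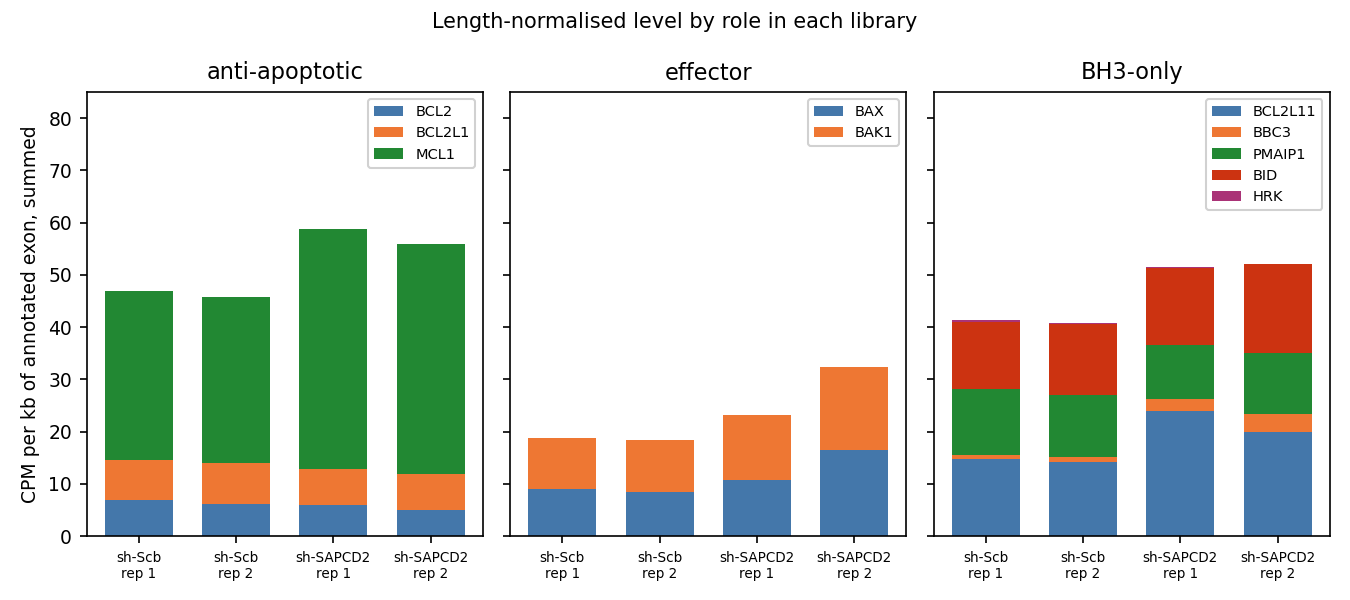
Stacked bars from 0 of CPM per kb of annotated exon in each library, with a panel for each role and a color for each member (HRK is too low to see). MCL1 fills 69.1% to 78.6% of the anti-apoptotic bars, and the effector bar is highest in sh-SAPCD2 replicate 2, where BAX and BAK1 sum to 32.4 against 23.2 in replicate 1.

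By the Euclidean distance of mean-centred log2 CPM over the 4 libraries, the genes most like BBC3 were CIART (distance 0.0851), ENSG00000261611 (0.105) and WNT5B (0.135), with log2 fold changes of 1.73, 1.64 and 1.64. Those most like HRK were ENSG00000277086 (0.121), ULBP3 (0.148) and GOLGA8H (0.156), with −0.76, −0.75 and −0.88. These likenesses rest on 4 libraries.

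Of 12 further BCL2 family genes, 8 could be tested, and their median log2 fold change was 0.18. Of these 8, 2 rose and 1 fell, against 12.4% and 12.5% of all tested genes. BCL2L2, which encodes the anti-apoptotic BCL-W, was at 35.6 and 33.8 CPM in the sh-Scb libraries and at 67.2 and 76.9 CPM in the sh-SAPCD2 libraries. It rose by 1.05 on the log2 scale (standard error 0.125, adjusted p = 0.00455) and was called in all 13 alternative analyses. BNIP3, a hypoxia-induced mitophagy receptor, rose from 72.1 and 64.3 to 101 and 108 CPM (log2 fold change 0.62, adjusted p = 0.0143). BCL2L13, another mitophagy receptor of the family, fell from 81.1 and 80.8 to 51.3 and 53.5 CPM (log2 fold change −0.63, adjusted p = 0.0109). BCL2L12 had a log2 fold change of −1.23 that did not pass the test (adjusted p = 0.058) but was called in 8 of 13 alternatives. BOK, BAD, BMF and BNIP3L, with log2 fold changes of 0.44, 0.05, 0.10 and 0.26, were not called. BNIP3 and BCL2L13 lost their calls without sh-Scb replicate 1 or 2. With BCL2L2 counted beside MCL1, 2 anti-apoptotic genes of the family rose, as did the BH3-only genes BBC3 and BCL2L11.

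Downstream of the mitochondria, 7 of 22 apoptosome, caspase and inhibitor genes rose and 4 fell, against 12.4% and 12.5% of all tested genes. CASP9, the initiator caspase of the apoptosome, went from 5.90 and 5.05 CPM to 9.92 and 14.1 CPM, a change of 1.13 on the log2 scale (adjusted p = 0.0185, standard error 0.23). VDAC1, the outer membrane channel, rose by 0.89 (adjusted p = 0.00322), DIABLO, which encodes the IAP antagonist SMAC, by 0.60 (0.0109), and DFFA, the inhibitor of the caspase-activated DNase, by 0.57 (0.00993). BIRC5, the mitotic protein survivin, fell by 0.84 (adjusted p = 0.00996), and PARP1, a DNA repair enzyme that caspases cleave, fell from 441 and 442 CPM to 189 and 172 CPM (log2 fold change −1.29, adjusted p = 0.0021). CYCS (cytochrome c) and APAF1, with log2 fold changes of 0.29 and 0.27 and adjusted p-values of 0.0706 and 0.226, were not called. The genes that rose included inhibitors of the cascade, DFFA and XIAP, an inhibitor of caspases (log2 fold change 0.59), beside CASP9. CASP2 was the caspase that fell, by 0.71 (adjusted p = 0.0111). Without sh-Scb replicate 1 or 2 only VDAC1, CASP9, BIRC5 and PARP1 stayed called, and without sh-SAPCD2 replicate 1 more genes were called. Calls over the whole table moved likewise.

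The death receptor pathway, which reaches the family through BID, showed 1 call among 9 tested of 13 genes. It was a fall, against 12.5% of all tested genes called lower. CFLAR, which encodes the caspase-8 inhibitor FLIP, fell from 46.4 and 49.3 CPM to 29.2 and 28.0 CPM (log2 fold change −0.74, adjusted p = 0.00995). CASP8 was at 3.11 and 4.07 CPM in the sh-Scb libraries and 3.63 and 3.41 CPM in the sh-SAPCD2 libraries, and the groups overlapped (log2 fold change −0.03, interval −0.62 to 0.56). FAS, with 10 to 26 counts per library, had a log2 fold change of 0.58 and an adjusted p of 0.414. CFLAR lost its call without sh-Scb replicate 1 or 2. Without sh-SAPCD2 replicate 1 edgeR called more genes of the list, as it did over the whole table.

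**Figure D5:**
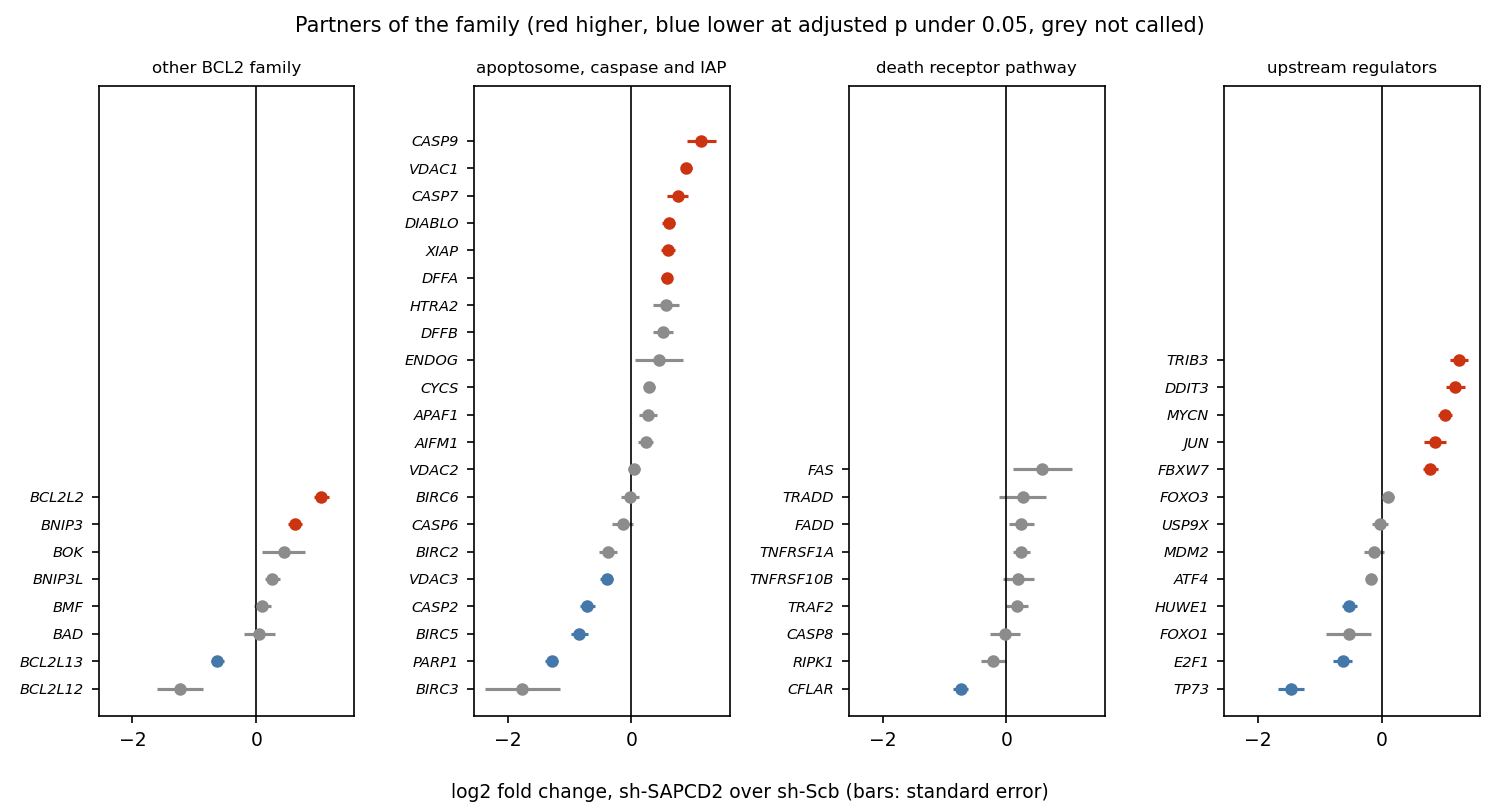
Log2 fold change, sh-SAPCD2 over sh-Scb, with its standard error for the reported tested genes of the 4 lists that surround the members, red for those called higher, blue for those called lower and grey for those not called at an adjusted p under 0.05. Calls run in both directions in each list but the death receptor pathway, where CFLAR is the 1 call.

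Of 14 factors known to act on transcription or stability of the members, 5 rose and 4 fell, against 12.4% and 12.5% of all tested genes. TP73, whose product can induce BBC3, fell from 11.4 and 8.90 CPM to 3.59 and 3.73 CPM (log2 fold change −1.47, adjusted p = 0.00683). BBC3 rose in the libraries where TP73 counts were lower. Gene counts do not separate the transcript forms of TP73, and its part in the rise of BBC3 was not tested. MDM2, a ubiquitin ligase gene, was not called (log2 fold change −0.12). E2F1, which can induce BBC3, HRK and TP73, fell by 0.63 (adjusted p = 0.0297).

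The stress factors DDIT3 and TRIB3, and JUN, rose. DDIT3, which encodes CHOP, an inducer of BBC3 and BCL2L11 under endoplasmic reticulum stress, went from 9.16 and 8.18 CPM to 19.3 and 20.2 CPM (log2 fold change 1.19, adjusted p = 0.00556). Its target TRIB3 rose by 1.25 (adjusted p = 0.00454) and JUN by 0.86 (adjusted p = 0.0181). ATF4, which acts above DDIT3 and TRIB3, had a log2 fold change of −0.17 and was not called. MYCN was at 3235 and 3178 CPM in the sh-Scb libraries and at 5904 and 7091 CPM in the sh-SAPCD2 libraries, a change of 1.02 on the log2 scale (adjusted p = 0.00378, standard error 0.111). FOXO1 and FOXO3, inducers of BCL2L11 and BBC3, had log2 fold changes of −0.53 and 0.11 and were not called.

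Of the genes whose proteins set the stability of MCL1, the ubiquitin ligase component FBXW7 rose from 46.1 and 46.3 CPM to 86.7 and 72.7 CPM (log2 fold change 0.79, adjusted p = 0.00997). The ligase HUWE1, also known as MULE, fell from 442 and 462 CPM to 346 and 284 CPM (log2 fold change −0.52, adjusted p = 0.0279). The deubiquitinase USP9X overlapped between the groups, with a log2 fold change of −0.03 and an interval of −0.33 to 0.28. The 2 ligase genes thus moved in opposite directions. Without sh-Scb replicate 1, JUN, E2F1, HUWE1 and FBXW7 lost their calls, and all of these but JUN also lost them without sh-Scb replicate 2. Calls over the whole table fell too.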

How the data were processed

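Per the study's methods, paired reads were mapped on hg38 by HISAT2 2.2.0 and abundances were estimated with StringTie. The authors deposited whole-number counts per Ensembl gene, not normalized. How coverage became counts, the annotation release and the strand setting are not given in the sources used here. Of 64252 genes, 29317 had no count, and 56105 identifiers matched GENCODE 44, which gave symbols, positions and lengths.

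The members and lists were chosen with earlier results of these data known. Groups came from the labels. The 2 sh-SAPCD2 libraries were compared with the 2 sh-Scb libraries in R 4.3.3 with edgeR 4.0.16 (TMM, filterByExpr minimum count 10, minimum total 15, two-sided quasi-likelihood test, Benjamini-Hochberg adjustment over 18779 genes). The standard error is the absolute log2 fold change over the square root of F. The biological coefficient of variation was 15.4%. Log2 CPM for gene likeness used a prior count of 2. The script was tested on simulated data.

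Named genes were the members, SAPCD2, the other BCL2 family and upstream lists, called genes of the other lists up to the 6 with the smallest p, CASP8, CASP9, APAF1, CYCS, FAS and the 3 nearest genes to the members with the largest rise and fall (mean of at least 1 CPM). XIAP, TNFRSF10B, the marker genes, the overlapping antisense genes and genes listed as not tested were named after their values were seen. Alternatives were DESeq2 1.42.0, its size factors, library totals, other filters, protein-coding genes only, the replicate block, a loess correction for GC content and length (span 0.3; 93% of tested genes had both), a test against a log2 fold change of 1, another gene length, and each library left out. Some genes of the lists enter the counts but are not reported here by name. A search of member proteins for the BH3 motif was not run. Sites and promoters were searched in Python 3.11.15 with pysam 0.24.0, and figures drawn with matplotlib 3.10.9. Floors cover counting error only.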

Additional observations from a re-analysis of the deposited data

How the results depend on the processing

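Over 13 alternatives, the 130 values of members kept direction and side of the threshold in 105, lost the call in 5, gained it in 18 and turned in 2. Members called higher, 3 in the analysis reported, numbered 5 in DESeq2, 5 with the replicate block, 6 with the GC content and length correction and 6 with both, and 1 to 6 with a library left out; members called lower numbered 0 to 1 with a library left out. DEGs among members went from 1 to 0 in the test against a log2 fold change of 1. Deviations from the group means were nearly uncorrelated between libraries of the same replicate number (correlation −0.0188). With 2 libraries per group these deviations mirror each other, so the value cannot decide whether the libraries were paired. The block gained BAX and BAK1 among members and gave 2860 genes higher and 2701 lower. PMAIP1 turned from −0.15 to 0.03 with the GC content and length correction and to 0.02 with the block added. BCL2L11 lost its call without a filter on low counts (adjusted p = 0.0588). Without that filter SAPCD2 stayed at −0.91 with an adjusted p of 0.0749 instead of 0.0206, and 7 instead of 11 apoptosome, caspase and IAP genes were called. The GC content and length correction called 18 of these, and it called 5 instead of 3 other BCL2 family genes, as it did with the block. With a library left out, other BCL2 family calls numbered 1 to 5, apoptosome, caspase and IAP calls 4 to 18, death receptor calls 0 to 4 (from 1), and upstream regulator calls 5 to 12 (from 9). The cause of these changes was not tested, except that leaving out a library leaves a group with 1 sample, assumed to vary like the other group.

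Over the whole table, 2326 genes were higher and 2339 lower, against 1081 and 1180 with no filter (34935 genes tested) and 3987 and 3478 with the GC content and length correction (3926 and 3353 with the block added). Leaving out a sh-Scb library gave 1201 and 1146 or 1176 and 1152, and leaving out a sh-SAPCD2 library gave 4396 and 4014 (replicate 1) or 3532 and 3496 (replicate 2). With 2 libraries per group and 16 to 43 counts, HRK could not be resolved. With the longest coding transcript as length, control levels per kb were 50.6 for MCL1, 23.5 for BID, 18.9 for BCL2L11 and 16.6 for BAX.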

Other observations

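Several genes of the death pathways were too low to test. BCL2A1, an anti-apoptotic member known from immune cells, had 0 counts in all 4 libraries, which allows at most 0.0955 to 0.119 CPM per library. BIK, a BH3-only gene, had 0 and 4 counts in the sh-Scb libraries and 8 and 9 in the sh-SAPCD2 libraries. CASP10, an initiator caspase of the death receptors, had 0 counts in both sh-Scb libraries and 4 and 7 in the sh-SAPCD2 libraries. BCL2L10 had 4 counts in sh-SAPCD2 replicate 1 and none in the other libraries, and BCL2L14 had 0 to 3. Of the TRAIL receptors, TNFRSF10A had 4 to 11 counts and the decoy receptors TNFRSF10C and TNFRSF10D had 0 to 5 and 0 to 8. TNFRSF10B was the TRAIL receptor with enough counts to test, at 2.24 and 2.29 CPM in the sh-Scb libraries and 2.41 and 2.77 CPM in the sh-SAPCD2 libraries (log2 fold change 0.19, adjusted p = 0.604).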
